A study of Mus musculus with 8 samples.

Results

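The genes described here are 9 chemokine, cytokine and cytokine receptor genes known from fibroblasts and other stromal cells, namely *Ccl2*, *Ccl7*, *Ccl20*, *Cxcl1*, *Cxcl5*, *Cxcl12*, *Il6*, *Csf1* and *Il1rl1*. They were taken by gene symbol from the arrays, where 8 of the 9 were named by a probe, out of 16593 genes with a named probe. *Il1rl1*, which encodes the receptor for interleukin-33, was not named by a probe and is left out. The 8 genes were read by 12 probes, 5 of them for *Cxcl12* and 1 for each of the other 7 genes.

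Total RNA of 8 mouse cell samples was hybridised to Illumina bead arrays, with 1 array per sample, in a study of pluripotency reached from fibroblasts by way of a neural stem cell state. The somatic samples were MEFs (embryonic fibroblasts), NSCs (neural stem cells) and iNSCs (induced neural stem cells, made from fibroblasts with *Brn4*, *Sox2*, *Klf4* and *Myc*). As pluripotent controls there were MEF 4F iPSCs (made from MEFs with the 4 factors *Oct4*, *Sox2*, *Klf4* and *Myc*), NSC 2F iPSCs (made from NSCs with the 2 factors *Oct4* and *Klf4*) and ESCs. The iNdiPSCs, pluripotent cells derived from the iNSCs, were represented by 2 clones of the same iNSC line, labelled 1 and 4. The labels give the strain C3H for the iNSCs and both clones, and B6D2F1/J for the other 5 samples, and a Tet-On background for MEFs, NSCs and ESCs. The labels mark the iNSCs as pluripotent, whereas the study's text and the markers below place them with the neural stem cells. By the study's methods the iPSC lines were grown on feeder cells in 2i medium, so that RNA of feeder cells may be part of those samples. Each line stands for 1 derivation, except for the 2 sister clones.

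Chemokines are small secreted proteins that attract leukocytes through G protein-coupled receptors. The CC ligands *Ccl2* and *Ccl7* attract mainly monocytes, and the ELR-type CXC ligands *Cxcl1* and *Cxcl5* attract neutrophils. *Cxcl12* acts through *Cxcr4* and holds blood stem cells and other progenitors in their niches. *Il6* encodes an inflammatory cytokine that signals through *Il6st* (gp130), and *Csf1* encodes the growth factor on which most macrophages depend. Fibroblasts make these factors at rest and, for several of them, far more after interleukin-1 or TNF acts through the transcription factor NF-kB.

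The 300 bases around the start site (250 before and 50 after) are shown for 4 of these genes because NF-kB is the best known regulator of the group. Sequences are from RefSeq, build GRCm38.p6, 5′ to 3′ on the gene's strand, and capitals mark matches to the NF-kB motif GGGNNNTTCC on either strand, overlapping matches being counted separately.
Cxcl1: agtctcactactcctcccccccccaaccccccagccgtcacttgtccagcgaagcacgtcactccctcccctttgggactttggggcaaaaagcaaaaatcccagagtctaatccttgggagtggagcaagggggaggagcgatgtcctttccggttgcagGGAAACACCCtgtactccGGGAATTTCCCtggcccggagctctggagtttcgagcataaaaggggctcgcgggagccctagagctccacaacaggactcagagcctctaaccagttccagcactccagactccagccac
Il6: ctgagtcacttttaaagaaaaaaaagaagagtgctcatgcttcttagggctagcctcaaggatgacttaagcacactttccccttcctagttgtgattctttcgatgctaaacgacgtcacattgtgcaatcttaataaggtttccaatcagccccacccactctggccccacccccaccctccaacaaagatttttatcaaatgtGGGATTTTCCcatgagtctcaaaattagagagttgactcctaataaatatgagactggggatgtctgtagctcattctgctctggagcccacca
Csf1: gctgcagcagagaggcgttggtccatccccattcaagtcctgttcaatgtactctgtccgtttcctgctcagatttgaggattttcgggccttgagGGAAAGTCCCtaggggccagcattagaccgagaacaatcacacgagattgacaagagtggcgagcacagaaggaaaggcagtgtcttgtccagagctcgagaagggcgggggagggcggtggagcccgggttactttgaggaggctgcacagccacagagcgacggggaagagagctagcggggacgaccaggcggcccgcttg
Cxcl12: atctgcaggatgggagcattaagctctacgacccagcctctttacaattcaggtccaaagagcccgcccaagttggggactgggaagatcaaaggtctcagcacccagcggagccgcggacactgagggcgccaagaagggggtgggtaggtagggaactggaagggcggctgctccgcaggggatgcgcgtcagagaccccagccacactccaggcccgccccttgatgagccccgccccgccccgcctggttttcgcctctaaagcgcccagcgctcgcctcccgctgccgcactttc
These windows lie at chr5:90890995-90891294 (plus strand), chr5:30012864-30013163 (plus strand), chr3:107760420-107760719 (minus strand) and chr6:117168285-117168584 (plus strand). The motif occurred in 5.56% of all 32851 promoter windows of this length, and in 4 of the 5 windows that matched a member with a probe, those of *Cxcl1*, *Il6*, *Csf1* and *Ccl20*. Windows of the other 3 members with a probe, *Ccl2*, *Ccl7* and *Cxcl5*, were not analysed here, so that these counts do not describe the whole group. *Cxcl1* held 3 matches, at -89, -71 and -70 from the start site (the first base of the match, with -1 the base before the start), of which the latter pair are the same near-palindrome read on both strands. *Il6* held 1 match at -44, *Csf1* 1 at -154 and *Ccl20* 1 at -80. The AP-1 motif TGANTCA, found on either strand in 7.81% of all windows, was present only in the *Il6* window among these 5, at -249. A match describes these letters and says nothing of binding in these cells.

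Levels are given on the log2 scale after background correction and quantile normalization, and detection means a detection p-value below 0.01. On this scale the lowest detected value of an array was 4.97 to 5.27, and values of these genes below detection ran from 4.19 to 5.02. All genes together were detected at 45.9% (ESCs) to 50.5% (MEF 4F iPSCs). Most markers went with the named cell types: 14 of 14 fibroblast markers were detected in MEFs, 5 of 9 neural stem cell markers in NSCs and 6 of 9 in iNSCs, and 10 of 10 pluripotency markers on each of the 5 pluripotent arrays. Markers were not confined to these arrays. Of the neural markers, 3 (*Nes*, *Sox2* and *Slc1a3*) were detected on each pluripotent array and 2 in MEFs, and *Sox1*, *Pax6* and *Prom1* on no array. Of the pluripotency markers, *Zfp42* (5.45) and *Dppa5a* (5.22) were detected in iNSCs, and 1 each in MEFs and NSCs. Of 8 leukocyte markers, *Lyz2* was detected in MEFs (5.70) and *Cd14* in MEF 4F iPSCs (5.46), with none detected elsewhere, and none of 6 mast cell markers was detected on any array.

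MEFs carried the highest level of every gene of the group that was detected at all, 7 of 7, against 21.3% of all detected genes that were highest in MEFs. The number of the 8 genes detected was 7 in MEFs, 2 in NSCs, 2 in iNSCs, 4 and 3 in iNdiPSC-1 and iNdiPSC-4, 6 in each of the NSC 2F and MEF 4F iPSCs, and 2 in ESCs. The iPSC lines made from MEFs or NSCs therefore shared 6 detected genes with MEFs, while neural stem cells of both kinds and ESCs kept only 2.

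**Figure D1:**
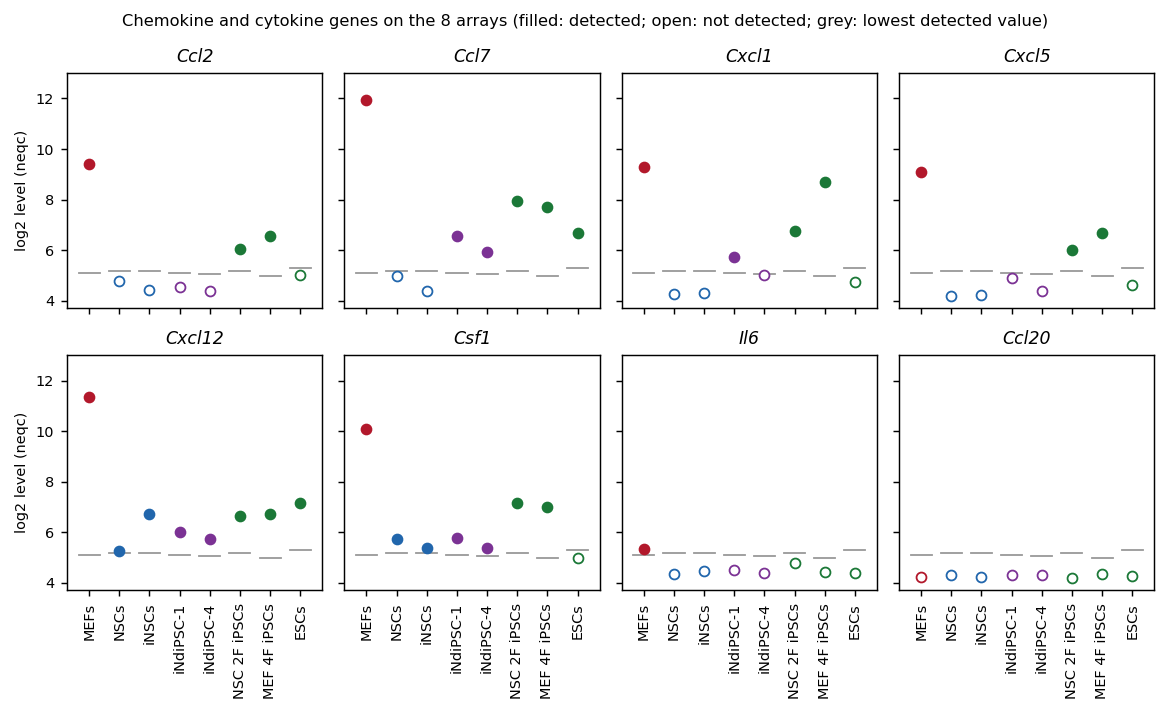
Log2 level of each of the 8 genes (1 panel each) on the 8 arrays, with filled points for detected values, open points for values not detected, and grey lines at the lowest detected value of the array. Colours separate MEFs, neural stem cells, iNdiPSC clones and control pluripotent lines, and each point is 1 array. All genes but *Ccl20* are highest in MEFs, and *Cxcl1* is nearly as high in MEF 4F iPSCs (8.69) as in MEFs (9.31).

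*Ccl7*, a monocyte attractant also known as MCP-3, was the most widely detected CC chemokine of the group. Its level was 11.94 in MEFs, 7.94 in NSC 2F iPSCs, 7.72 in MEF 4F iPSCs, 6.66 in ESCs, 6.57 in iNdiPSC-1 and 5.92 in iNdiPSC-4, and it was not detected in NSCs (4.96) or iNSCs (4.36). MEFs stood at least 108-fold above NSCs and 38.9-fold above ESCs. The 5 pluripotent samples all lay between MEFs and the neural stem cells. The only duplicate that gives a spread between samples of one kind is the pair of clones, whose 95th percentile of absolute difference over genes was 0.72 at levels of 4 to 6 and 0.62 at levels of 6 to 8. By that measure NSC 2F and MEF 4F iPSCs (apart by 0.21) could not be ordered for *Ccl7*, nor could ESCs and iNdiPSC-1.

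*Ccl2* (MCP-1), the neighbour of *Ccl7* on chromosome 11, was detected on fewer arrays. It read 9.40 in MEFs, 6.57 in the MEF 4F line and 6.05 in the NSC 2F line, and was not detected in ESCs (5.02), NSCs (4.78), iNdiPSC-1 (4.55), iNSCs (4.42) or iNdiPSC-4 (4.37). Both clones and the ESCs were thus without a detectable level of *Ccl2*, whereas both iPSC lines of the other strain had one. *Ccl20*, the ligand of *Ccr6*, was not detected on any array, with levels of 4.20 to 4.35. Among the next genes along chromosome 11, chosen after their values were seen, *Ccl11* was detected in MEFs (6.83) and NSC 2F iPSCs (5.89), *Ccl8* in MEFs alone (5.59), and *Ccl12* and *Ccl1* on no array.

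*Cxcl1* (KC), a neutrophil attractant, differed least between MEFs and MEF 4F iPSCs among the 6 genes detected in both. It read 9.31 in MEFs, 8.69 in MEF 4F iPSCs, 6.75 in NSC 2F iPSCs and 5.73 in iNdiPSC-1. It was not detected in iNdiPSC-4 (5.02, with a detection p-value of 0.011, just past the threshold), ESCs (4.75), iNSCs (4.29) or NSCs (4.25). MEFs were 1.53-fold above MEF 4F iPSCs, a log2 difference of 0.61 that is wider than 0.52, the 95th percentile between the clones at levels above 8. The clones differed by 0.71 for *Cxcl1* itself, though near background. As sisters of 1 line they may understate the spread between separate samples. MEF 4F iPSCs were in turn 3.86-fold above NSC 2F iPSCs and at least 10.7-fold above ESCs.

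*Cxcl5* (LIX), another ligand of *Cxcr2*, lies in the same cluster on chromosome 5. Its level was 9.11 in MEFs, 6.70 in the MEF 4F line and 6.01 in the NSC 2F line, and it was not detected in iNdiPSC-1 (4.91), ESCs (4.60), iNdiPSC-4 (4.40), iNSCs (4.21) or NSCs (4.19). The detected arrays were the same 3 as for *Ccl2*. Between *Cxcl5* and *Cxcl2* the reference annotation places, in order, *Ppbp*, *Pf4*, *Cxcl3*, *Cxcl15* and *Cxcl1*. *Ppbp*, which encodes the precursor of the neutrophil attractant CXCL7, was detected on the same 3 arrays (8.19 in MEFs, 7.27 in MEF 4F iPSCs, 5.82 in NSC 2F iPSCs). *Cxcl15*, next to *Cxcl1*, was high in MEFs (9.58) and not detected on any of the other 7 arrays, and *Pf4*, *Cxcl3* and *Cxcl2* were detected on none. Neighbours in this cluster, also picked after their values were seen, therefore did not share one pattern.

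*Cxcl12* (SDF-1) was the 1 gene of the group detected on all 8 arrays, through the probe with the highest mean signal. This probe read 11.33 in MEFs, 7.14 in ESCs, 6.72 in iNSCs, 6.70 in MEF 4F iPSCs, 6.64 in NSC 2F iPSCs, 6.0 in iNdiPSC-1, 5.71 in iNdiPSC-4 and 5.26 in NSCs. Outside MEFs, the iNSCs, MEF 4F iPSCs and NSC 2F iPSCs lay between 6.64 and 6.72, and NSCs were lowest. The 5 *Cxcl12* probes, which are assigned to 3 transcripts, did not agree on the arrays other than MEFs. Another pair of probes were bright in MEFs (11.11 and 10.07) and not detected on any other array, and the last pair were not detected on any array, MEFs included (4.23 to 4.41 and 4.21 to 4.36). The excess of MEFs is thus seen with 3 of the 5 probes, and every level or difference of *Cxcl12* outside MEFs given here rests on 1 probe.

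**Figure D2:**
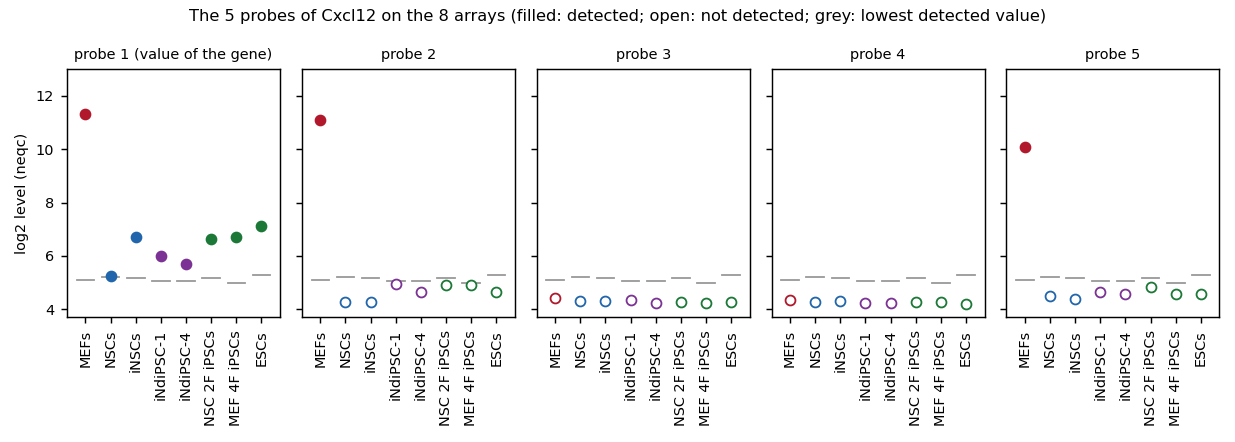
Log2 level of each of the 5 *Cxcl12* probes (1 panel each) on the 8 arrays, with filled points detected, open points not detected, and grey lines at the lowest detected value of the array. Probes 1, 2 and 5 are bright in MEFs (11.33, 11.11 and 10.07), and only probe 1, which gives the value of the gene, is detected on the other arrays.

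*Csf1*, the macrophage growth factor, was detected on every array but that of the ESCs. It read 10.08 in MEFs, 7.16 in NSC 2F iPSCs, 7.01 in MEF 4F iPSCs, 5.76 in iNdiPSC-1, 5.73 in NSCs, 5.36 in iNdiPSC-4, 5.36 in iNSCs and 4.96, not detected, in ESCs. The iPSC lines from MEFs and NSCs differed by 0.15, and the clones and neural stem cells formed a lower group within 0.41 of each other. *Il6* was detected only in MEFs, at 5.35, close to the lowest detected value of that array (5.09), and at no more than 1.3-fold above the limit of any other array it was compared with. Its level in MEFs was far below those of the other 6 detected genes, although levels of different probes are not on 1 scale.

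The comparisons of 1 array with 1 array have no replicate and carry no p-value. A value not detected was raised to the lowest detected value of its array, so that such folds are lower bounds, written as at least. The 6 genes *Ccl2*, *Ccl7*, *Cxcl1*, *Cxcl5*, *Cxcl12* and *Csf1* exceeded NSCs in MEFs by 2-fold or more, as did 17.1% of all genes detected on either array. The folds were 67.2 for *Cxcl12*, 20.3 for *Csf1*, and at least 18.4 for *Ccl2*, 17.3 for *Cxcl1* and 15.1 for *Cxcl5*. The same 6 genes were higher in MEFs than in iNSCs (16.5% of all genes), with 24.4-fold for *Cxcl12* and 26.4-fold for *Csf1*, and higher in MEFs than in ESCs (22.6%). iNSCs and NSCs differed by 2-fold in 1 gene only, *Cxcl12*, which was 2.75-fold higher in iNSCs (8.82% of all genes were higher there). The iNSC array differs in strain from both the MEF and the NSC array, so that in these comparisons strain and cell type cannot be told apart, and these MEFs are not of the strain of the iNSCs.

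The derived lines differed from their donors in opposite directions for MEFs and NSCs, a contrast between single arrays that was not tested. The lower levels after MEFs restate that MEFs were highest for every detected gene. Genes below detection in NSCs could only stay undetected or be higher in the derived line. The contrast therefore largely repeats the difference between the donors. From MEFs to MEF 4F iPSCs 5 genes were lower by 2-fold or more (21.1% of all genes were), namely *Cxcl12* (24.8-fold), *Ccl7* (18.6-fold), *Csf1* (8.36-fold), *Ccl2* (7.09-fold) and *Cxcl5* (5.33-fold), and *Cxcl1* was not among them. From NSCs to NSC 2F iPSCs 4 genes were higher (18.2% of all genes were), namely *Ccl7* (at least 6.70-fold), *Cxcl1* (at least 2.94-fold), *Csf1* (2.69-fold) and *Cxcl12* (2.59-fold). Without background correction that count was 1 in place of 4. The labels give a Tet-On background for MEFs and NSCs but not for these iPSC lines, so that it cannot be told apart from derivation. Between the iNSCs and their iPSC clones, *Ccl7* was at least 2.63-fold higher in iNdiPSC-1 (20.9% of all genes were higher) and at least 1.67-fold higher in iNdiPSC-4. *Cxcl12* was 2.02-fold lower in iNdiPSC-4 than in iNSCs (20.5%) and 1.65-fold lower in iNdiPSC-1. Neither 2-fold difference was reached without background correction, nor that of *Cxcl12* with 75th percentile scaling.

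Against ESCs, MEF 4F iPSCs were higher in 5 of the 8 genes, where 6.02% of all genes were higher. The folds were at least 10.7 for *Cxcl1*, at least 3.34 for *Csf1*, at least 2.68 for *Cxcl5*, at least 2.46 for *Ccl2* and 2.08 for *Ccl7*. NSC 2F iPSCs were higher than ESCs in 3 genes (3.86% of all genes were), *Csf1* (at least 3.71-fold), *Cxcl1* (at least 2.77-fold) and *Ccl7* (2.41-fold). On the NSC array neither *Ccl7* nor *Cxcl1* was detected. Both comparisons use the same ESC array, and without background correction the counts were 1 and 0. The labels give a Tet-On background for the ESCs but not for these iPSC lines, so that it cannot be told apart from the kind of line. *Cxcl1* was the 1 gene of the group at least 2-fold higher in MEF 4F iPSCs than in NSC 2F iPSCs, where 3.96% of all genes were, and so the 1 gene higher than in both other lines, as were 2.71% of all genes.

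Fibroblast markers were counted on the same arrays. Of 14 markers, 14 were detected in MEFs, 11 each in the MEF 4F and NSC 2F iPSCs, 9 and 7 in the clones, 5 in NSCs, 5 in ESCs and 3 in iNSCs. Their summed signal was 49940 in MEFs, 2100 in NSC 2F iPSCs, 1866 in MEF 4F iPSCs, 943 and 755 in iNdiPSC-1 and iNdiPSC-4, 495 in ESCs, 368 in iNSCs and 297 in NSCs. The summed signal of the 8 members was 9394 in MEFs, 971 in MEF 4F iPSCs, 643 in NSC 2F iPSCs, 269 in ESCs, 234 and 141 in iNdiPSC-1 and iNdiPSC-4, 139 in iNSCs and 99.95 in NSCs. Both sums were highest in MEFs, next in the MEF 4F and NSC 2F iPSCs, and lowest in NSCs, but the order of these iPSC lines, and that of ESCs and clones, differed between the sums. The sums take in readings below detection and weigh most on the brightest genes. Among the members these were *Cxcl1* in MEF 4F iPSCs (8.69) and *Cxcl12* in ESCs (7.14, on 1 probe). *Col1a1*, a defining collagen, read 12.46 in MEFs, 7.29 in NSC 2F iPSCs, 7.02 in MEF 4F iPSCs and 6.34 and 5.72 in the clones, and was not detected in NSCs, iNSCs or ESCs. The part of fibroblast RNA in these results was not tested. In such bulk samples fewer cells of a type and less RNA per cell cannot be told apart.

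As a share of the MEF signal (with the offset of the normalization taken off), the fibroblast markers detected on both arrays stood at 1.48% to 7.22% in MEF 4F iPSCs, with a median of 3.75% over 11 genes. *Cxcl1* stood at 64.5%, *Cxcl5* at 16.3%, *Ccl2* at 12.0% and *Csf1* at 10.6%, all above that range, and *Ccl7* (4.98%) and *Cxcl12* (3.43%) lay inside it. In NSC 2F iPSCs, which were not made from MEFs, the markers stood at 1.41% to 13.8%, with a median of 4.38%, and *Cxcl1* (14.8%) alone of the 6 genes lay above them. *Csf1* (12.0%), *Cxcl5* (9.0%), *Ccl2* (7.64%), *Ccl7* (5.83%) and *Cxcl12* (3.25%) did not exceed the highest marker there. In iNSCs the members detected, *Cxcl12* (3.49%) and *Csf1* (2.34%), lay inside the range of the 3 markers detected (1.72% to 16.1%, median 11.5%). Only these 3 of the 14 markers were detected in iNSCs, so that this median does not describe the whole list. On every array the ranges leave out the markers and members that were not detected there. The members also lay inside the range of the markers in NSCs (0.874% and 3.5% against 0.692% to 9.18%), in iNdiPSC-1 (1.87% to 6.01% against 0.667% to 10.1%) and in iNdiPSC-4 (1.13% to 2.37% against 0.498% to 8.79%). In ESCs *Cxcl12* (4.87%) was above the 5 markers detected (0.534% to 2.63%) while *Ccl7* (2.18%) was not. These shares are descriptions of single arrays, and the difference between the genes and the markers was not tested.

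**Figure D3:**
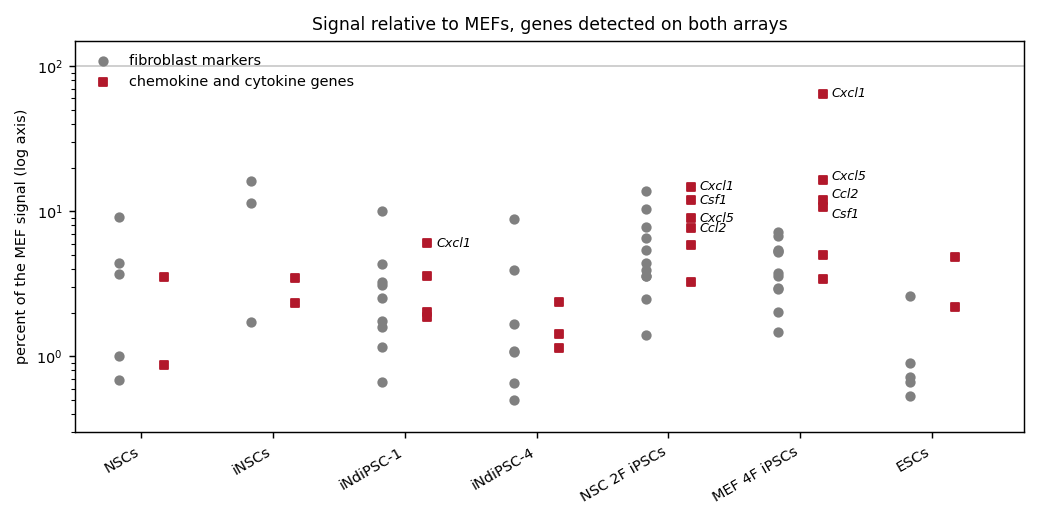
Signal on each array as percent of the MEF signal (log axis, offset taken off), for fibroblast markers (grey circles) and the chemokine and cytokine genes (red squares), each point 1 gene detected on both arrays. In MEF 4F iPSCs *Cxcl1* lies at 64.5% and the fibroblast markers at 1.48% to 7.22%.

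The 3 control pluripotent lines were then compared with the 3 somatic samples by limma over 9007 genes detected on at least 2 of these 6 arrays, with calls at an adjusted p below 0.05 and 2-fold. Of the 8 genes, 6 could be tested, *Il6* and *Ccl20* being left out by the detection filter, and most of the 6 passed it through MEFs and the iPSC lines. Called genes numbered 0 of 6, while 23.3% of all genes were called, 12.9% higher and 10.4% lower. At an unadjusted p below 0.05 the count was also 0 of 6, against 40.9% of all genes. The differences (control pluripotent lines minus somatic samples) were 0.35 for *Ccl7* (SE 1.96, adjusted p = 0.906), 0.78 for *Cxcl1* (SE 1.61, adjusted p = 0.748) and -0.95 for *Cxcl12* (SE 1.46, adjusted p = 0.660). For *Csf1* the difference was -0.68 (SE 1.34, adjusted p = 0.735), for *Ccl2* -0.32 (SE 1.33, adjusted p = 0.875) and for *Cxcl5* -0.07 (SE 1.39, adjusted p = 0.974). Readings below detection enter these fits as measured, and at the limit of their array the differences ran from -0.95 for *Cxcl12* to 0.35 for *Cxcl1*. The somatic group holds both ends of the range, MEFs at the top and neural stem cells at the bottom, and the groups overlapped for all 6 genes, where 25.9% of all genes had every pluripotent array above the somatic ones and 22.7% below. Without the MEF array *Ccl7* was called higher in the pluripotent lines, where 18.2% of all genes were called higher, and no other member was called. The difference was at least 4.78-fold, since NSCs and iNSCs were below detection (fitted difference 2.78, SE 0.44, adjusted p = 0.00436 by limma). *Ccl7* then passed the detection filter only through the pluripotent lines, where it is high, and the fit used undetected readings for both neural stem cell arrays. This call therefore shows no more than the pattern of detection does.

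In the iNdiPSC clones against the control pluripotent lines, 0 of 6 tested genes were called, against 1.17% of 8400 genes (0.571% higher, 0.595% lower). Means were lower in the clones for all 6. However, *Ccl2* and *Cxcl5* were detected in neither clone and passed the detection filter only through control lines, so that their lower means follow from the filter. *Cxcl1* was detected in only 1 of the clones. The differences in limma (clones minus control lines), in which readings below detection enter as measured, ran from -0.82 for *Csf1* to -1.42 for *Ccl2*. With such readings at the limit of their array, they ran from -0.90 for *Ccl2* to -1.51 for *Cxcl1*. *Cxcl12* had the smallest error, at -0.97 (SE 0.22, adjusted p = 0.102 by limma). *Ccl2*, *Ccl7* and *Cxcl12* had an unadjusted p below 0.05, as had 19.1% of all genes, with adjusted p of 0.168, 0.208 and 0.102 by limma. For *Ccl7* and *Cxcl12*, which were detected on all 5 arrays, the readings of both clones were below those of all 3 control lines, as they were for 18.8% of all genes. For *Ccl7* this rests on 6.66 in ESCs against 6.57 in iNdiPSC-1, which could not be ordered. *Ccl2* has no such order, since it was not detected in the clones or in ESCs. The median over the 6 genes was -1.15 (-0.95 with undetected readings at the limit), beside 0.02 over all genes tested, and that of 11 tested fibroblast markers was -0.48. The median of the 6 takes in *Ccl2* and *Cxcl5*, so that it is in part set by the filter. Without the ESC array, *Ccl2* (adjusted p = 0.0388 by limma) and *Csf1* (-1.53, adjusted p = 0.0445 by limma) were called lower, as were 0.807% of all genes. *Ccl2* was not detected in either clone, so that its difference there is a bound, at least 2.36-fold. It entered that fit only through the control lines, so that its call shows no more than the filter does. All clones are C3H and all control lines B6D2F1/J, so that strain and derivation cannot be told apart.

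**Figure D4:**
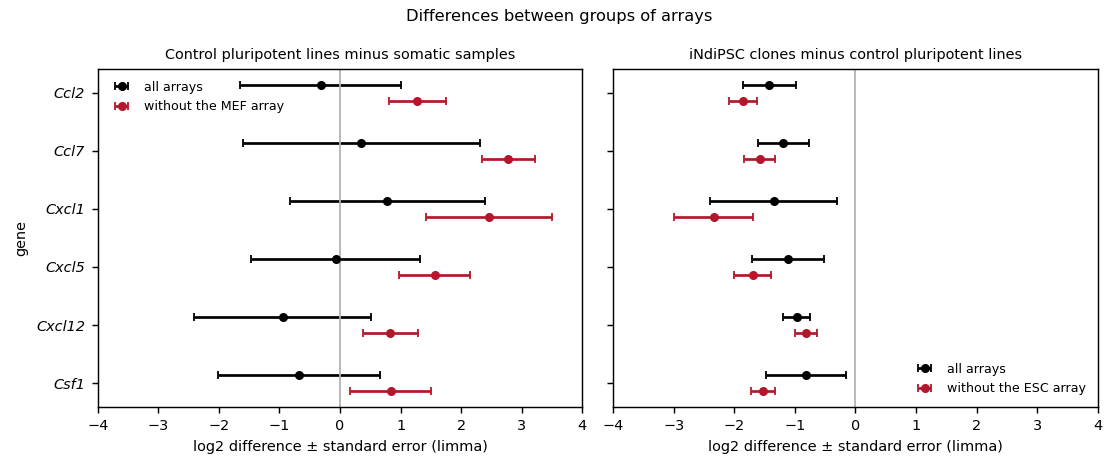
Log2 difference with its standard error from limma for the 6 genes tested, for control pluripotent lines minus somatic samples (left) and iNdiPSC clones minus control pluripotent lines (right), with all arrays (black) and without 1 array (red). Removing MEFs moves *Ccl7* from 0.35 to 2.78 on the left, and all 6 estimates on the right lie below 0, with readings below detection entered as measured. *Ccl7* without MEFs (left), and *Ccl2* and *Cxcl5* (right), passed the detection filter only through the control pluripotent lines.

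Few chemokine receptors were detected. Of 22 chemokine receptor genes with a probe, 3 were detected on any array: *Cxcr4*, the receptor of *Cxcl12*, in NSCs (6.40) and iNSCs (8.08), and the atypical receptors *Ackr1* (6.98) and *Ackr3* (5.20), which bind chemokines without classical signalling, in iNSCs. None of the 22 was detected in MEFs or on a pluripotent array. *Il6st*, the shared signalling subunit for interleukin-6 type cytokines, was detected on 7 of the 8 arrays, with MEFs highest (7.91) and MEF 4F iPSCs not detected (4.67). *Il33*, the ligand of the receptor encoded by *Il1rl1*, read 5.68 in MEFs, 6.32 in NSCs and 6.71 in iNSCs, and was not detected in iNdiPSC-4 or ESCs.

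Of 32 other chemokine ligand genes, 11 were detected on any array, 10 of them in MEFs. *Cxcl14*, a chemokine of skin and stroma, read 10.04 in MEFs, 7.45 in NSC 2F iPSCs, 6.37 in MEF 4F iPSCs and 6.22 and 5.89 in the clones. *Cxcl16*, a transmembrane ligand, was highest in MEF 4F iPSCs (6.91), above NSC 2F iPSCs (6.03) and MEFs (5.96), and was not detected in ESCs (5.07), NSCs or iNSCs. Of 7 tested in control pluripotent lines against somatic samples, 0 were called higher (12.9% of all genes were) and 1 lower (10.4%), *Cx3cl1* (fractalkine). Its log2 difference was -2.28 (SE 0.55, adjusted p = 0.0283 by limma). Of 6 tested in clones against control lines, 1 was called lower (0.595% of all genes were), *Ccl27a*, which was not detected in either clone. It read 7.26 to 7.91 in the control lines (at least 5.80-fold, adjusted p = 0.0052 by limma). *Ccl27a* passed the detection filter only through the control lines, and the fit used undetected readings for both clones. Its call therefore shows no more than the filter does.

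Among 19 other cytokine genes of fibroblasts, 14 were detected in MEFs and 1 to 6 on each other array. *Tnfrsf11b* (osteoprotegerin, 10.10), *Il1rn* (the interleukin-1 receptor antagonist, 9.15), *Tslp* (7.73) and *Il7* (7.73) were detected in MEFs only. *Il1a*, an alarmin that induces *Cxcl1* in fibroblasts, was detected in MEF 4F iPSCs only (7.35), at least 4.77-fold above MEFs and at least 4.21-fold above ESCs. *Il18*, detected in all 3 somatic samples, was not detected on any of the 3 control pluripotent arrays (at least 8.33-fold lower, adjusted p = 0.0125 by limma). It was the 1 call among 6 tested, where 10.4% of all genes were called lower. *Il18* passed the detection filter only through the somatic samples, and the fit used undetected readings for the control pluripotent lines. The call thus shows no more than the pattern of detection. In the clones 0 of 5 were called (1.17% of all genes were).

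Of 27 genes of NF-kB, interleukin-1 and TNF signalling with a probe, 22 were tested in control pluripotent lines against somatic samples. None was called higher (12.9% of all genes were) and 1 lower (10.4%), *Traf2*, an adaptor of TNF receptors. It was not detected on any of the 3 control pluripotent arrays (at least 2.16-fold lower, adjusted p = 0.00906 by limma). *Traf2* passed the detection filter only through the somatic samples, and the fit used undetected readings for the control pluripotent lines. Its call thus shows no more than detection does. In the clones 0 of 18 were called (1.17% of all genes were). *Tnfaip3* (A20), an NF-kB target that restrains the pathway, was detected in MEF 4F iPSCs (6.08) and MEFs (5.25) only. *Ptgs2* read 6.45 in MEFs, 6.34 in MEF 4F iPSCs, 6.13 in NSC 2F iPSCs and 5.60 and 5.48 in the clones, and was not detected in ESCs, NSCs or iNSCs. *Tlr4* (7.44) and *Il1r1* (6.08), receptors through which *Cxcl1* can be induced, were detected in MEFs only. Other receptors of this list were not confined to MEFs. *Tlr2* was detected in MEFs (7.21), both clones (7.34 and 7.73), the MEF 4F line (6.19) and the NSC 2F line (7.53). *Tnfrsf1a* was detected in MEFs (8.72), NSCs (7.20), iNSCs (5.96) and the MEF 4F line (5.41), and *Tlr3* and *Tnfrsf1b* on no array. *Rela*, the p65 subunit, was detected on all 8 arrays at 8.44 to 9.92.

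Of 13 epidermal and epithelial markers, 9 were detected in MEF 4F iPSCs, 8 in NSC 2F iPSCs, 6 in ESCs and 4 in MEFs. Simple-epithelial genes make up 5 of the 9 (*Krt7*, *Krt8*, *Krt18*, *Krt19* and *Cdh1*), and all of these but *Krt19* were detected on all 5 pluripotent arrays. *Krt5*, *Trp63*, *Ivl* and *Krt6a*, genes of stratified epithelia, were not detected on any array. *Krt14*, a keratin of basal epidermis, read 10.61 in MEF 4F iPSCs, 5.66 in MEFs, and was not detected on the other 6 arrays. *Sprr1a* read 9.39 in MEF 4F iPSCs and at most 5.71 elsewhere. Keratinocytes are also known to make *Cxcl1*, *Il1a* and *Cxcl16*. The part of these genes in the level of *Cxcl1* was not tested.

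**Figure D5:**
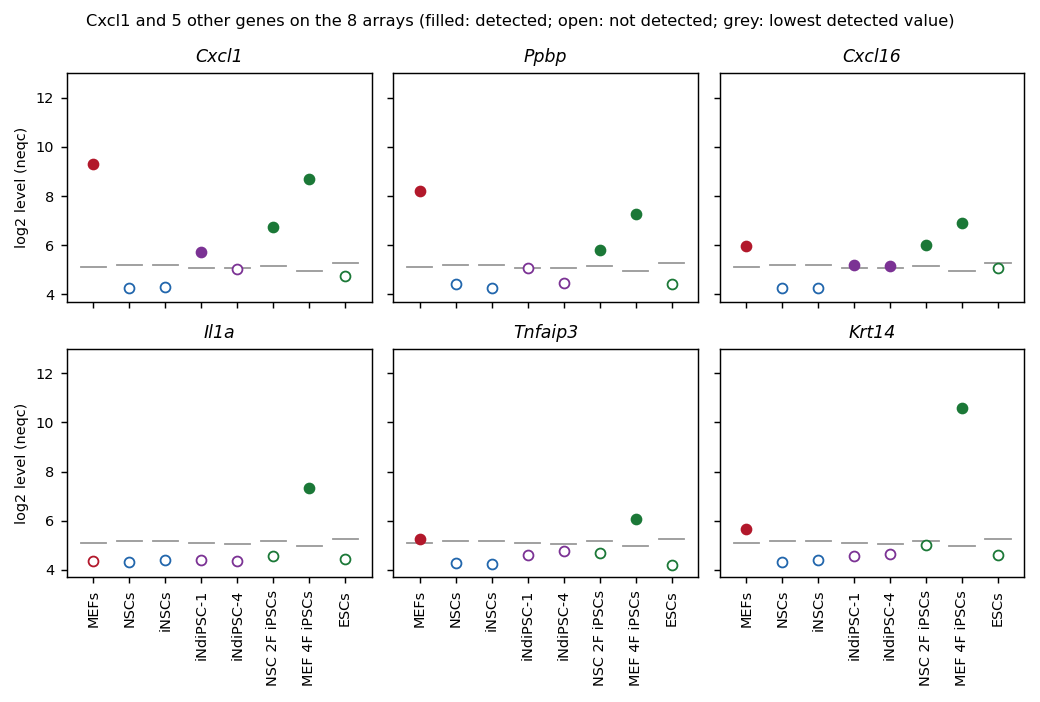
Log2 level of *Cxcl1*, *Ppbp*, *Cxcl16*, *Il1a*, *Tnfaip3* and *Krt14* on the 8 arrays, drawn like the plot of the 8 genes, the latter 5 chosen after their values were seen. *Ppbp* follows *Cxcl1* over the arrays, and *Il1a* (7.35) and *Krt14* (10.61) are highest in MEF 4F iPSCs.

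Over the 8 arrays, the genes most like the mean profile of the detected members were *Tnfaip2* (Pearson's r = 0.996), *Thbs2* (0.992) and *Atp8b1* (0.987), out of 4169 genes with a range of at least 2 on the log2 scale. For single genes the closest were *Ppbp* to *Cxcl1* (0.989), *Tnfaip2* to *Ccl2* (0.992) and to *Cxcl5* (0.994), *Sulf1* to *Ccl7* (0.993), *Osmr* to *Csf1* (0.986), *Hacd4* to *Cxcl12* (0.980) and *Angptl7* to *Il6* (0.990). With 8 arrays of different cell types these correlations are descriptions.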

How the data were processed

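The authors deposited, for each of 8 arrays, the mean bead intensity of every probe before normalization, exported with BeadStudio 3.2, with a detection p-value for each probe. They also deposited a matrix of background-corrected, normalized log2 values (methods named as RMA and lumi), used only as an alternative, and its scale and centring are not given in the sources used here. No value column was left without a sample (0).

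Intensities were corrected and normalized with neqc (offset 16) of limma 3.58.1 in R 4.3.3. Of 25697 probes, 23978 carry 1 gene symbol in the platform's table and 1719 none, and symbols were those of RefSeq by gene identifier. The array's genome build is not given in the sources used here. A gene was represented by the probe with the highest mean. Values not detected (detection p-value of 0.01 or more) were raised to the lowest detected value of the array for single-array folds. Groups were compared by linear models (limma, moderated by eBayes) on genes that at least 2 arrays of the comparison detected, with Benjamini-Hochberg adjustment over all of them, on values without that limit. Samples of a group are different lines or sister clones with 1 array each, so p-values measure only the spread between them, and the number of arrays limits the precision. Fits were tested on simulated data. The alternatives were 75th percentile scaling, raw intensities without background correction, the authors' log2 values, changed detection filters, a 4-fold limit, all probes, and each array left out. The 9 genes, the gene lists and the naming rule (all members, called list genes, list genes as examples, and the closest profiles) were chosen with earlier results of these data known.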

Additional observations from a re-analysis of the deposited data

Results flagged for a closer look

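The change from donor to derived line, on the log2 scale with undetected values at the limit of their array, went in opposite directions between origins for 9 pairs of changes (differences are the second origin minus the first), and this difference was not tested because each origin has 1 donor array. The negative changes from MEFs restate that MEFs were highest for every detected gene. Genes below detection in NSCs or iNSCs could only stay undetected or be higher in the derived line. Between MEF origin (MEF 4F iPSCs minus MEFs) and NSC origin (NSC 2F iPSCs minus NSCs), the changes differed by 3.68 for *Ccl2* (-2.83 and 0.86), 6.96 for *Ccl7* (-4.22 and 2.74), 2.17 for *Cxcl1* (-0.61 and 1.55), 3.23 for *Cxcl5* (-2.41 and 0.81), 6.01 for *Cxcl12* (-4.63 and 1.37) and 4.49 for *Csf1* (-3.06 and 1.43). Between MEF origin and iNSC origin (mean of both clones minus iNSCs), they differed by 5.29 for *Ccl7* (1.07 from iNSCs) and 3.27 for *Csf1* (0.21 from iNSCs). The *Csf1* change from iNSCs is smaller than 0.72, the 95th percentile between the clones at levels of 4 to 6, so that its direction is not resolved. Between NSC and iNSC origin, *Cxcl12* differed by -2.24 (-0.87 from iNSCs and 1.37 from NSCs), on the 1 probe detected outside MEFs.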

How the results depend on the processing

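No paired analysis was possible because each group but the iNdiPSCs has 1 array, and the clone numbers only name clones. The counts of members higher in MEFs were the same under every alternative tried but all probes, where each *Cxcl12* probe counts by itself (8, 8, 7 and 8 probes over NSCs, iNSCs, MEF 4F iPSCs and ESCs). Of the counts between other arrays, without background correction the genes higher in MEF 4F iPSCs than in ESCs went from 5 to 1, in NSC 2F iPSCs than in ESCs from 3 to 0, and in NSC 2F iPSCs than in NSCs from 4 to 1. The *Cxcl12* difference between iNSCs and NSCs, the *Ccl7* difference of iNdiPSC-1 and the *Cxcl12* difference of iNdiPSC-4 went from 1 gene to 0 each, the last also with 75th percentile scaling (0). A 4-fold threshold left 1 gene (MEF 4F iPSCs over ESCs), 1 (NSC 2F iPSCs over NSCs) and 0 in the other such counts, MEF 4F over NSC 2F iPSCs included. For NSC 2F iPSCs over ESCs the count was 5 with the authors' values, without the limit or with detection at 0.05. Without the limit it was 2 for genes higher in iNdiPSC-1 than in iNSCs, and for iNdiPSC-4 it was 1 (main 0) without the limit, with the authors' values and with detection at 0.05.

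For control pluripotent lines against somatic samples, all called genes numbered 1152 without background correction and 713 to 3172 on leaving out 1 array, against 2101, and called members 0 to 1 (*Ccl7*, without MEFs). For the clones they were 34 without background correction, 63 with detection on at least 3 arrays, 65 with no filter, 158 with all probes and 2 to 112 on leaving out 1 array, against 98, and called members 0 to 2 (*Ccl2* and *Csf1*, without ESCs).

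In the first comparison, estimates of single members, none of them called with all arrays, changed sign under some settings. On leaving out 1 array, *Ccl2* ran from -1.21 (without iNSCs) to 1.28 (without MEFs), *Ccl7* from -1.01 (iNSCs) to 2.78 (MEFs), *Cxcl1* from -0.20 (MEF 4F iPSCs) to 2.46 (MEFs), *Cxcl5* from -0.89 (NSCs) to 1.57 (MEFs), *Cxcl12* from -2.20 (NSCs) to 0.83 (MEFs) and *Csf1* from -1.53 (iNSCs) to 0.83 (MEFs). *Ccl2* was 0.26 with the authors' values, *Ccl7* -0.53 without background correction and -0.12 with the clones added, and *Cxcl5* 0.15 with 75th percentile scaling and 1.20 with the authors' values. Signal near background limits most levels outside MEFs. The cause of these changes was not tested.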
